A study of Mus musculus with 6 samples.

Results

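Ribosomal proteins are the protein parts of the cytosolic ribosome, and their genes were followed here in SOX9-positive cells of the fetal mouse liver between E16.5 and E18.5. Genes were taken as members when the annotation names them as protein-coding Rpl or Rps genes with a number, or as Rpsa, Rplp0, Rplp1 or Rplp2, which gave 83 of the 52550 genes in the table. Of these, 46 encode core proteins of the large subunit, 31 encode core proteins of the small subunit, and 6 are paralogs (Rpl3l, Rpl7l1, Rpl10l, Rpl22l1, Rpl39l and Rps27l). RNA came from GFP-positive cells sorted out of dissociated livers of Sox9-GFP embryos on the CD-1 background, after haematopoietic cells had been depleted magnetically. Each stage has 3 libraries, lettered A to C, for each of which 15 livers were pooled, and no treatment or further allele distinguished the stages. The labels name the cells cholangiocytes and the days 16 and 18, and the reporter follows Sox9 rather than a cell lineage. Values are given as TPM, in which the reads of a gene are divided by its length and by the library total.

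The ribosome has a large subunit, which joins amino acids into a chain, and a small subunit, which reads the mRNA. Nearly every ribosomal protein is present once per ribosome, with the acidic stalk proteins as the known exception, so cells need their products in equal amounts. Most of these mRNAs begin with a C followed by a stretch of C and T, the terminal oligopyrimidine (TOP) tract, through which the kinase mTOR and the RNA-binding protein LARP1 adjust their translation. Mammalian genomes also carry very many processed pseudogenes of ribosomal protein mRNAs, which are intronless copies with nearly the same sequence.

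All 77 core genes were detected, but their levels per length were far from equal. Rplp0, the scaffold of the ribosomal stalk, was highest, with 1512, 1485 and 1200 TPM in the E16.5 libraries, in the order A to C used throughout, and 1535, 1881 and 1766 TPM at E18.5. The next were Rps4x, an X-linked gene of the small subunit, with a mean of 1186 TPM over the 6 libraries, Rpl4 with 1113 TPM and Rplp1, a stalk protein, with 1095 TPM. At the other end, Rpl23a, which lies beside the exit of the peptide tunnel, had a mean of 2.88 TPM and Rpl24, a large subunit protein, one of 2.89 TPM. Rpl29, Rpl21 and Rps28 followed at 3.39, 5.14 and 5.80 TPM. The highest mean was thus 542 times the lowest among genes whose proteins are needed in like numbers. The median core gene had 104 TPM, 43 core genes had a mean above 100 TPM, 27 lay between 20 and 100 TPM, and 7 lay below 20 TPM. The 10 highest genes held 50.6% of the members' summed TPM.

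**Figure D1:**
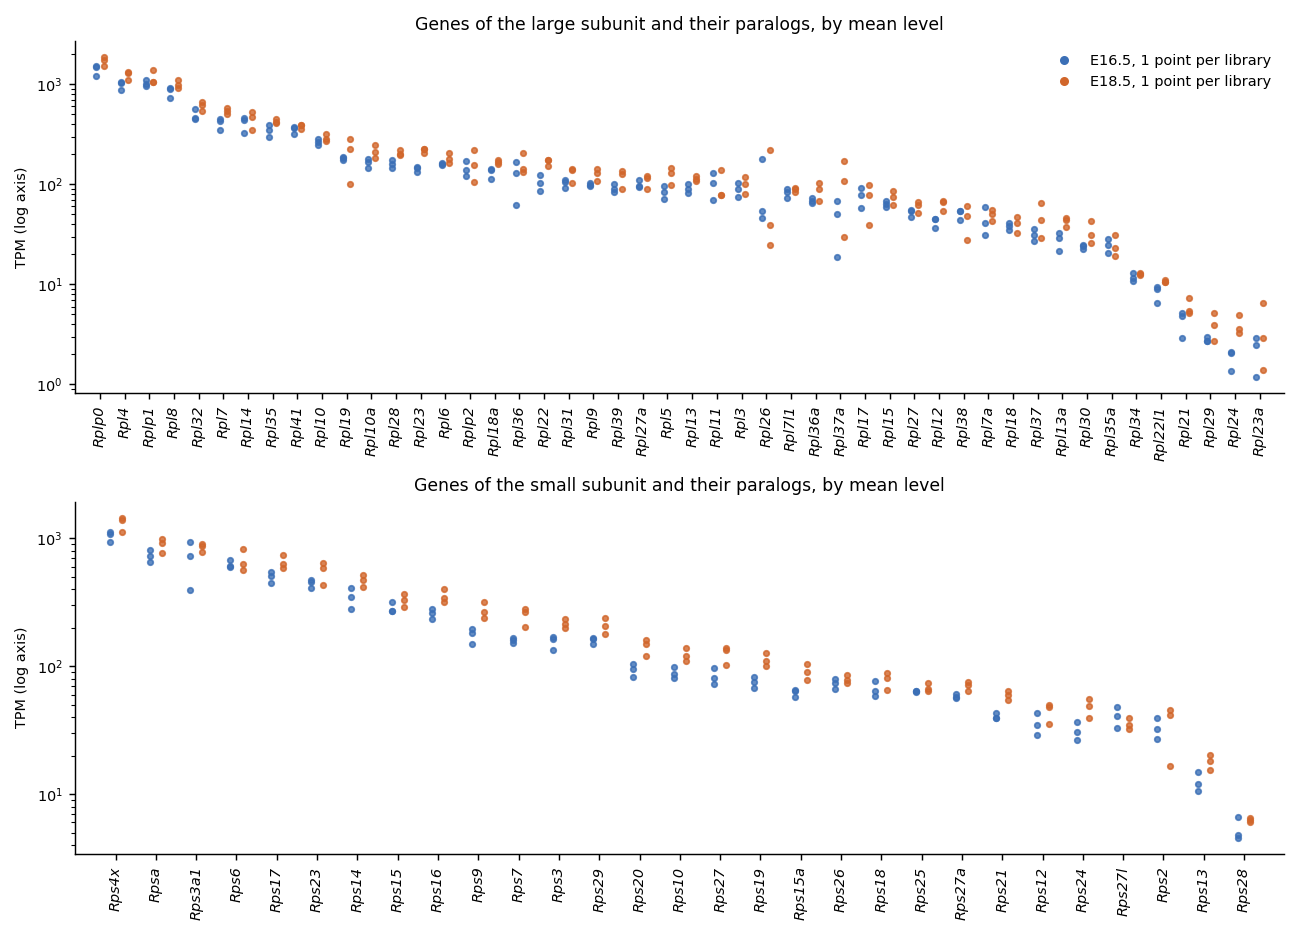
TPM (log axis) of ribosomal protein genes averaging 1 TPM or more, ordered by mean level, with 1 point per library and the stages in different colours. Levels fall from 1563 TPM for Rplp0 to 2.88 TPM for Rpl23a, a range much wider than the gap between the stages, and Rpl26 and Rpl37a scatter most between libraries.

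The exon models behind the TPM are long for such short proteins. The median core gene had 1781 exonic bases in the annotation but 456 coding bases, and the ratio of these lengths ran from 1.22 to 16.1, with Rps15a, a small subunit protein, at 6270 exonic and 390 coding bases. With reads divided by coding length in place of exonic length, over the 67 core genes with recovered reads, the gene at the 90th percentile was 18.2 times the gene at the 10th, against 26.0 times in TPM. The full range was wider on that scale, with the highest gene at 1109 times the lowest, against 542 times in TPM. The order of the genes was similar on both scales (Spearman rho 0.89 across these genes, which are not independent replicates).

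Members share much of their coding sequence with other genes. For each coding gene, the share of its 50-base coding windows that also occur in transcripts of another gene was counted in the GENCODE vM21 annotation (build GRCm38). The median was 93.05% for the core genes and 0% for the other coding genes, and every window was shared for 29 of the 77 core genes (37.7%), against 3.47% of 21775 other coding genes. A total of 1095 annotated pseudogenes shared at least 1 window with a member, 991 of them are listed in the table, and 486 had a mean of at least 1 TPM. Their summed TPM exceeded that of the members in all 6 libraries, by 1.22 to 1.33 times in the E16.5 and 1.36 to 1.45 times in the E18.5 libraries. TPM divides by length, so a larger sum of TPM need not mean more reads.

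The median pseudogene sum was similar for genes listed low and high, while the sums of single genes ranged widely. The median was 227 TPM for the 7 core genes below 20 TPM, where the sum ran from 69.6 to 477 TPM. It was 216 TPM for the 55 core genes between 20 and 400 TPM, where the sum ran from 0 to 1984 TPM. For the 15 core genes at 400 TPM or more it was 200.2 TPM, and the sum reached 833 TPM for Rpsa. With the pseudogene TPM added to each core gene, the highest was 32.6 times the lowest, against 542 times for the genes alone. The 90th percentile was then 8.33 times the 10th, against 26.0 times. Since the median sum was similar for low and high genes, adding the sums is expected to narrow the range whatever the origin of the reads. In TPM, which divides reads by unlike lengths, the pseudogene sum was above the gene's own level for 53 of 77 core genes. Whether the reads listed on pseudogenes came from the parent mRNA was not tested.

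**Figure D2:**
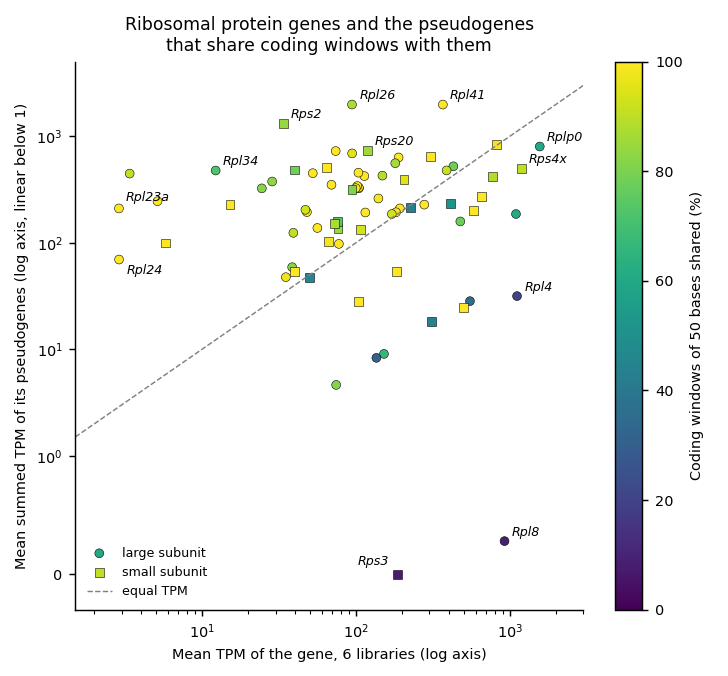
Mean TPM of core genes (horizontal, log axis) against the mean summed TPM of the pseudogenes that share 50-base coding windows with it (vertical, log axis, linear below 1), coloured by the share of the gene's windows that are shared. Rps3 sits at 0 on the vertical axis, while Rps2, Rpl26, Rpl34 and all 7 genes below 20 TPM lie above the dashed line of equal TPM.

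How little separates these loci is seen in the sequences of Rpl26, Rpl41 and Rps2, which have the largest pseudogene sums, of Rplp0, the most abundant member, and of Rpl34, one of the 7 genes below 20 TPM. Each pair below gives the member and its most abundant pseudogene over the same coding bases, taken from the GENCODE vM21 transcripts as the 90-base stretch with most differences (all 75 coding bases for Rpl41), with differing bases in capitals.
Rps2: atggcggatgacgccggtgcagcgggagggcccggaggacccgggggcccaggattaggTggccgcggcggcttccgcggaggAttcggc
Rps2-ps13: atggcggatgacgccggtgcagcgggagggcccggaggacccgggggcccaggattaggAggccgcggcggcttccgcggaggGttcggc
Rpl26: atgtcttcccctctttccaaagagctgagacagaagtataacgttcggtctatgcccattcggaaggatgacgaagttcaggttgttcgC
Gm15772: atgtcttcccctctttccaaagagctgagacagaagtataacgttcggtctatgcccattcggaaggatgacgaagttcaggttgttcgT
Rpl34: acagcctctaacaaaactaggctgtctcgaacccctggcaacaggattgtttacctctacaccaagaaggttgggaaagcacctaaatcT
Rpl34-ps1: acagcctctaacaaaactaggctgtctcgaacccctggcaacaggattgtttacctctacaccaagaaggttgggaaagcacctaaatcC
Rplp0: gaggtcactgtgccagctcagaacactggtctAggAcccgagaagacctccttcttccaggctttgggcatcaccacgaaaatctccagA
Gm8730: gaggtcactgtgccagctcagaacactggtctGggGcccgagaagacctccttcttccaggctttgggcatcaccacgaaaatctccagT
Rpl41: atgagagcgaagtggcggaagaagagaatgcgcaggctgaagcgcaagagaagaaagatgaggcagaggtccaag
Gm10736: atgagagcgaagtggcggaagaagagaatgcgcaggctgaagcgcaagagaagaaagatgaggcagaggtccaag

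Rps2, a small subunit protein near the mRNA entry, differed from Rps2-ps13 (chrX:52898588-52899469) at 7 of 879 coding bases. The gene had a mean of 33.8 TPM and the pseudogene one of 811 TPM. Rpl26, a large subunit protein, differed from Gm15772 (chr5:3236431-3236868) at 2 of 435 bases, and the means were 94.2 and 1887 TPM. Rpl34 differed from Rpl34-ps1 (chr6:71124610-71124963) at 2 of 351 bases, and had 12.3 TPM against 413 TPM. Rplp0 differed from Gm8730 at 12 of 951 bases, and here the gene was the higher of the pair, at 1563 TPM against 712 TPM. The 75 coding bases of Rpl41, the shortest ribosomal protein, were identical in Gm10736, which was listed at 1613 TPM against 367 TPM for the gene. Values of genes that share nearly all their windows are therefore uncertain as levels of the gene. TPM also divides by unlike lengths in these pairs. Rpl41 has 1168 exonic bases and Gm10736 has 78, and Rpl34 has 2643 against 354 for Rpl34-ps1. A higher TPM of the pseudogene thus need not mean more reads.

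Some members share little with other loci. Of the 77 core genes, 10 shared fewer than 50% of their windows, with a median level of 267 TPM. Rps3, a small subunit protein at the mRNA entry, shared 8.09% and had 186 TPM, Rpl8, a large subunit protein near the peptidyl transferase centre, shared 8.73% and had 923 TPM, and Rpl4 shared 20.3%. The other 67 core genes had a median of 104 TPM, and all 7 core genes below 20 TPM were among them. Across the 77 core genes, level and shared windows were only weakly related (Spearman rho -0.23).

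The question of the stage comparison is whether the ribosomal protein genes changed as the ducts formed. Their summed TPM was 17298, 18192 and 14827 at E16.5 and 20998, 22899 and 18660 at E18.5, so that every E18.5 library lay above every E16.5 library. The members thus took from 1.48% to 1.82% of all TPM in the earlier libraries and from 1.87% to 2.29% in the later ones. The mean sum was 16772 ± 1743 TPM (SD, n = 3) at E16.5 and 20852 ± 2123 TPM (SD, n = 3) at E18.5, a ratio of 1.24, which ran from 1.18 to 1.31 with each library left out in turn. The large subunit sum went from 9294 to 11293 TPM, the small subunit sum from 7346 to 9424 TPM, and the sum over the paralogs from 132 to 135 TPM. Within a stage, replicate C had the lowest value for 55 of 77 core genes at E16.5 and for 60 at E18.5, and replicate B the highest for 44 and 59.

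Gene by gene, 16 of the 80 members tested rose at E18.5 and 0 fell, by limma on log2(TPM + 1) with Benjamini-Hochberg adjustment over all genes. Among all 22452 genes tested, 26.0% were called higher and 5.22% lower, and among the 13961 protein-coding genes tested 31.5% were called higher, so the share of members called higher, 20%, lay below both. Among genes averaging at least 5 TPM the shares were 23.4% of members and 36.3% of all genes. At an unadjusted p under 0.05 from limma, 29 of 80 members were higher and 0 lower, against 8840 higher and 1648 lower of all 22452 genes. The fold change was above 0 for 72 of 80 members (90%), against 77.9% of all genes tested. The members' median was 0.32 (log2), while the median of all genes tested was 0.42. In 34 members the stages did not overlap with E18.5 higher and in 0 with E18.5 lower, or 42.5% and 0% of them, against 45.0% and 8.3% of all genes tested. Of the protein-coding genes, 53.0% did not overlap with E18.5 higher.

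The number of calls and the direction rest on the libraries and the scaling. Without E18.5 replicate A, 0 members were called, without E18.5 replicate B 1, without E16.5 replicate A 2 and without E16.5 replicate C 3. The count was 10 without E16.5 replicate B and 22 without E18.5 replicate C. Calls fell among all genes too, from 26.0% called higher to 4.63%, 9.46%, 16.55%, 14.99%, 16.87% and 20.8% in the same order. The members' share lay below that of all genes in each of these runs except without E18.5 replicate C, where it was 27.5%. Under median-of-ratios scaling, which moved the median of all genes to 0.00, the members' median was -0.14, 0 members were called higher and 4 lower (Rpl41, Rpl7l1, Rps26 and Rps27l), and of all calls 38.0% were higher against 83.3% in TPM. Relative to the median of all genes, the members lay lower in 15 of the 17 settings run, by up to 0.15, and higher in the other two, quantile normalization and no filter on low values.

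**Figure D3:**
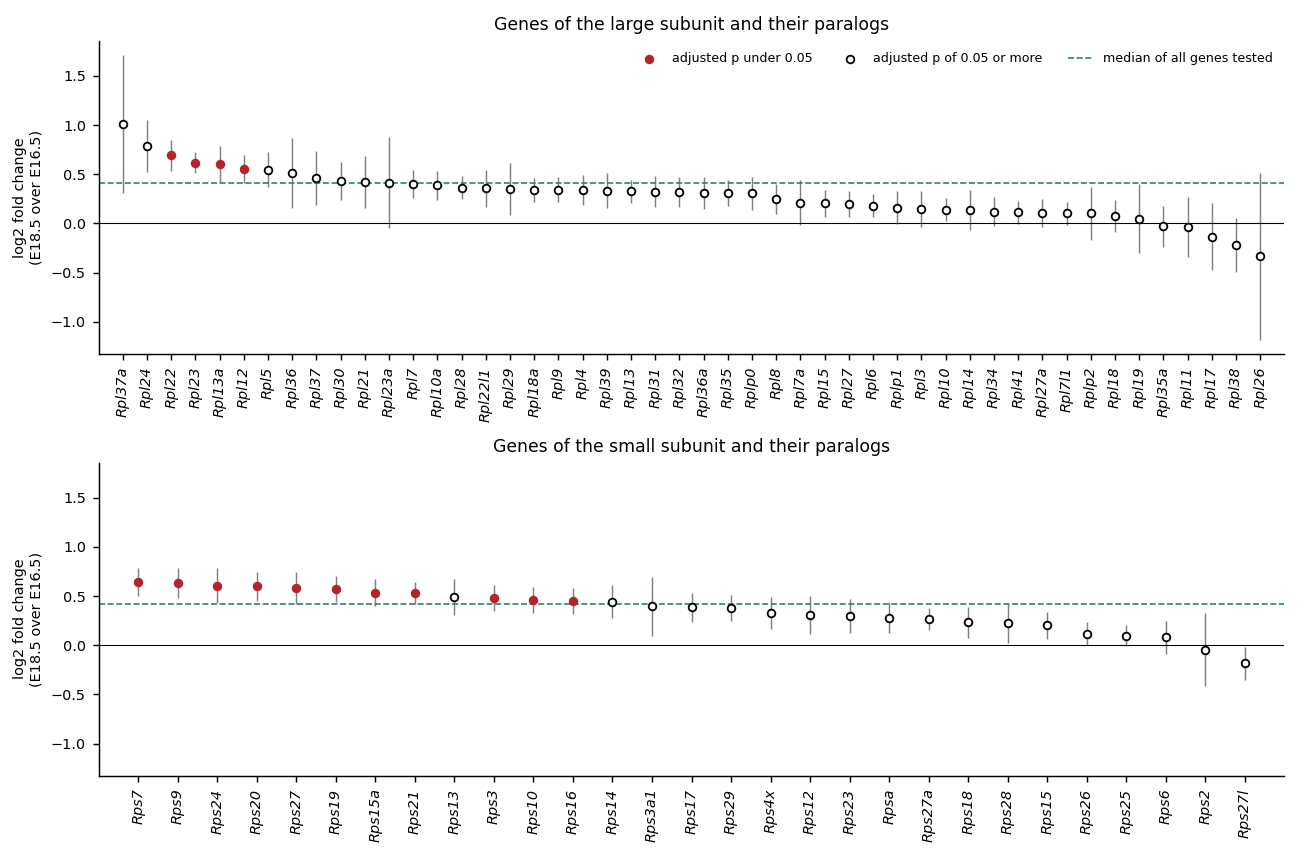
The log2 fold change from E16.5 to E18.5 in TPM (points, with the standard error from limma as bars) of members tested, ordered by size in each subunit, with filled points for an adjusted p under 0.05 and a dashed line at 0.42, the median of all genes tested. Most filled points belong to the small subunit, and they lie between 0.45 and 0.69; under median-of-ratios scaling none of them was called.

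The 16 called genes were 12 of the small and 4 of the large subunit, of 31 and 46 core genes tested. Rps7, a small subunit protein, had 160, 166 and 151 TPM at E16.5 and 282, 267 and 204 TPM at E18.5. The stages did not overlap, and the log2 fold change was 0.64 ± 0.15 (SE) with an adjusted p of 0.0210. Rps9 had 183, 196 and 150 TPM at E16.5 and 265, 317 and 240 TPM at E18.5, again without overlap, with a log2 fold change of 0.63 ± 0.16 and an adjusted p of 0.0254. Also called were, among others, Rps24, Rps20, Rps27, Rps19, Rps15a, Rps21, Rps3, Rps10 and Rps16, with log2 fold changes from 0.61 for Rps24 down to 0.45 for Rps16. Rps19 is the gene most often mutated in Diamond-Blackfan anaemia. The difference between the subunits was not tested, and the ratio of their summed TPM overlapped between the stages, at 1.27, 1.23 and 1.30 (large over small) in the E16.5 libraries and 1.14, 1.21 and 1.25 in those of E18.5.

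In the large subunit, Rpl22, Rpl23, Rpl13a and Rpl12 were called. Rpl22, a surface protein that is dispensable for translation in most cells, had 102, 125 and 85.0 TPM at E16.5 and 173, 175 and 154 TPM at E18.5. The stages did not overlap, with a log2 fold change of 0.69 ± 0.16 and an adjusted p of 0.0209. The call of Rpl22 was lost without E16.5 replicate A, E18.5 replicate A or E18.5 replicate B. Rpl23, a binding partner of MDM2, had the lowest adjusted p of the members, 0.0118. It had 149, 144 and 133 TPM at E16.5 and 223, 226 and 205 TPM at E18.5, with SDs of 8.12 and 11.2 TPM, and a log2 fold change of 0.62 ± 0.10. Rpl23 remained called when any library but E18.5 replicate A was left out. Rpl13a, known as part of the GAIT complex, and Rpl12, a protein at the stalk base, had log2 fold changes of 0.60 and 0.55. Under median-of-ratios scaling the log2 fold changes were 0.23 for Rpl22, 0.15 for Rpl23 and 0.17 for Rps9, and none was called.

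Fold changes in TPM were mostly above 0 whether a gene shared little or much, as were those of 77.9% of all genes tested. Of all genes tested, 26.0% were called higher. Under median-of-ratios scaling 22 of the 80 members were above 0 and 58 below. Of the 10 core genes with fewer than 50% of windows shared, 5 were called higher (Rps9, Rps3, Rps21 and Rpl22 among them), 9 had a fold change above 0, and the median was 0.41. Of the other 67, 11 were called, 61 were above 0, and the median was 0.32. The sums of the groups went up by 1.29 and 1.23 times. The pseudogenes themselves had a median log2 fold change of 0.37 over the 486 tested, against 0.42 for all genes tested. Of the pseudogenes, 66 (13.6%) were called higher and 5 (1.03%) lower, against 26.0% and 5.22% of all genes tested. Gm9794, a copy of Rpl23, went from a mean of 433 to 682 TPM with a log2 fold change of 0.66 ± 0.14 and an adjusted p of 0.0195, close to its parent gene in size.

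Of the 5 largest rises in size 2 were not called (Rpl37a and Rpl24), nor was any of the 5 lowest fold changes. Rpl37a had 50.4, 18.7 and 68.1 TPM at E16.5 and 29.4, 172 and 108 TPM at E18.5, so the stages overlapped, and its log2 fold change of 1.01 ± 0.70 had an adjusted p of 0.288. Rpl26 had 54.5, 178 and 46.2 TPM at E16.5 and 39.6, 24.9 and 222 TPM at E18.5. In each of these genes the highest library was about 9 times the lowest (9.17 times for Rpl37a, 8.90 times for Rpl26), whereas the median core gene had a ratio of 1.68. The high libraries were not the same: Rpl26 was high in E16.5 replicate B and E18.5 replicate C, where Rpl37a was at its lowest of E16.5 and at its middle value of E18.5. Reads were not scarce, with 184 to 2005 recovered reads for Rpl26 and 206 to 1238 for Rpl37a. Gm15772, the pseudogene nearest to Rpl26, had 1725, 1483 and 1518 TPM at E16.5 and 2448, 2533 and 1617 TPM at E18.5, with its lowest value of each stage in the library where Rpl26 was highest. Rpl26 showed a log2 fold change of -0.33 ± 0.85.

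Rpl24 came close to a call. It had 1.36, 2.12 and 2.07 TPM at E16.5 and 4.97, 3.23 and 3.59 TPM at E18.5 without overlap, from 12 to 35 recovered reads per library, with a log2 fold change of 0.79 ± 0.26 and an adjusted p of 0.0574. Rpl38, which is known for its part in patterning the embryonic skeleton, had a log2 fold change of -0.22 ± 0.27, Rps27l one of -0.19 ± 0.17 and Rpl17 one of -0.13 ± 0.34. None of these 3 was called in TPM, and the sign of Rpl38 and Rpl17 turned without E18.5 replicate C, that of Rpl17 also without E16.5 replicate A.

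The stalk genes and Rpsa were abundant and were not called. Rplp1 had 1015, 1107 and 968 TPM at E16.5 and 1040, 1394 and 1047 TPM at E18.5, with a log2 fold change of 0.16 ± 0.17. Rplp0, whose stages did not overlap, had 0.31 ± 0.17 and an adjusted p of 0.187. Rplp2, which pairs with Rplp1 in the stalk, was much lower, with 121, 139 and 172 TPM at E16.5 and 156, 219 and 105 TPM at E18.5, and a log2 fold change of 0.10 ± 0.27. The mean of Rplp2, 152 TPM, was far below the 1095 TPM of its partner. The annotation gives Rplp2 2072 exonic bases and Rplp1 499, while their coding lengths are 345 and 342 bases. In recovered reads the gap was smaller, with 2151, 2254 and 2835 for Rplp2 against 4341, 4309 and 3851 for Rplp1 at E16.5. At E18.5 the reads were 2218, 2315 and 881 against 3551, 3555 and 2122. Of the windows of Rplp2, 66.2% also occur in transcripts of Wdr89, a protein-coding gene with a mean of 105 TPM. The pseudogene of Rplp2 was listed at 9.04 TPM. Rpsa, the small subunit protein also known as the laminin receptor, had a mean of 815 TPM and a log2 fold change of 0.28 ± 0.15. For Rps4x and Rpl4 it was 0.33 ± 0.16 and 0.34 ± 0.15, with adjusted p of 0.154 and 0.127.

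Of the 6 paralogs, 3 were present and 3 were at or near 0. Rpl7l1 had 84.5, 90.03 and 73.1 TPM at E16.5 and 90.3, 92.2 and 83.1 TPM at E18.5, next to a mean of 476 TPM for Rpl7. Rps27l, a target of p53, had 48.3, 41.0 and 33.2 TPM at E16.5 and 32.2, 39.6 and 34.7 TPM at E18.5, next to a mean of 104 TPM for Rps27. Rpl22l1, whose product can stand in for Rpl22, had 6.45, 8.96 and 9.33 TPM at E16.5 and 10.6, 10.5 and 11.0 TPM at E18.5. Its stages did not overlap, but 0.36 ± 0.19 (log2) had an adjusted p of 0.172, and Rpl22 was far higher, at a mean of 136 TPM.

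The other paralogs are known for other tissues. Rpl3l, a gene of heart and skeletal muscle, rested on 0 to 5 reads per library, and Rpl10l, an autosomal gene used in male germ cells, had 2 reads in E18.5 replicate B and 0 in the other libraries. Rpl39l, also of germ cells, had 0 reads in every library, which allows a level of up to 0.421 to 0.889 TPM, the value of 3 reads in each library, counting error only. Their broadly used counterparts Rpl3, Rpl10 and Rpl39 had means of 94.4, 278 and 104 TPM, and log2 fold changes of 0.15, 0.14 and 0.33 that did not pass the test.

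Paralogs differ from their counterparts at many more bases than the pseudogenes do. Rps27 and Rps27l differed at 60 of 252 coding bases, with no identical stretch longer than 11 bases. The first 90 coding bases of both show this, with differing bases in capitals.
Rps27: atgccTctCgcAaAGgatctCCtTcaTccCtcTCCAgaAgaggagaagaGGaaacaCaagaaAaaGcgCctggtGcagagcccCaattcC
Rps27l: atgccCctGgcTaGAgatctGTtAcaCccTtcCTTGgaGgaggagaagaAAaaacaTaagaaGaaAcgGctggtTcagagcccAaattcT
Identity over aligned coding bases was 76.2% for this pair, 70.4% for Rpl22 and Rpl22l1, 59.2% for Rpl7 and Rpl7l1, 74.3% for Rpl3 and Rpl3l, 84.7% for Rpl10 and Rpl10l, and 85.0% for Rpl39 and Rpl39l.

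Around the ribosomal protein genes, other genes of the translation machinery were compared in lists. Beside them, 26.0% of all genes tested were called higher and 5.22% lower, 77.9% had a fold change above 0, and the median was 0.42. Of 18 elongation factors and other mRNAs known to carry a TOP tract, 12 (66.7%) were called higher and 0 lower, with a median log2 fold change of 0.59. Eef2, the translocation factor, had 1775, 1858 and 1471 TPM at E16.5 and 3197, 3270 and 2701 TPM at E18.5, well apart, with a log2 fold change of 0.85 ± 0.18 and an adjusted p of 0.0177. The largest rise of the list was that of Vim, the intermediate filament vimentin, at 1.17 ± 0.32, and Vim is also a marker of mesenchymal cells. The list kept a positive median, 0.12, under median-of-ratios scaling, where 0 of its genes were called, and without E18.5 replicate A 0 were called as well; under quantile normalization 7 were called higher.

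Ribosome production was represented by 3 further lists. Of 14 genes for transcription of ribosomal RNA, 7 (50%) were called higher, 0 lower, and all 14 had a fold change above 0, with a median of 0.50. Taf1a, a subunit of the selectivity factor of RNA polymerase I, rose by 1.01 ± 0.22. Of 38 assembly factors 5 (13.2%) were called higher and 0 lower. That share and the median of 0.31 lay below those of all genes tested, 26.0% and 0.42. Nop53, a factor of large subunit maturation, had the largest rise, 0.81 ± 0.11. Of 7 noncoding TOP hosts of small nucleolar RNAs tested, 3 (42.9%) were called higher and 0 lower, led by Snhg1 at 1.13 ± 0.22. The rRNA transcription list had 0 calls without E18.5 replicate A, 0 without E18.5 replicate B, and 2 to 4 without any other library. Under median-of-ratios scaling 1 of its genes was called higher and its median was 0.07, and under quantile normalization these were 1 and 0.10. The noncoding hosts had 0 calls without E18.5 replicate A and 1 to 3 without any other library, and 1 under either scaling. Of the assembly factors, 2 to 4 were called higher with a library left out, 1 higher and 2 lower under median-of-ratios scaling, and 1 higher under quantile normalization.

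Of 23 translation initiation factors tested, 3 were called higher and 1 lower, with a median of 0.24. Eif5a, a factor that relieves stalled ribosomes, had 346, 315 and 337 TPM at E16.5 and 242, 264 and 219 TPM at E18.5 and fell by 0.46 on the log2 scale (SE 0.12, adjusted p 0.0264). In TPM with all libraries this was the only call of a fall in the lists of the translation machinery. Eif1ax had the largest rise, 0.58 ± 0.14. With a library left out, 0 to 2 initiation factors were called higher, and 0 lower except without E18.5 replicate B, where 1 was. Under median-of-ratios scaling 0 were called higher and 4 lower, and under quantile normalization 0 and 1. Among 14 regulators of ribosomal protein mRNAs 4 (28.6%) were called higher, against 26.0% of all genes tested. Mycn, a MYC family factor, was highest at 0.88 ± 0.27, while Mtor, Larp1 and Myc had log2 fold changes of 0.03, 0.01 and 0.02. Of the regulators, 0 were called without E18.5 replicate A, without E18.5 replicate B and under quantile normalization, and 0 higher and 3 lower under median-of-ratios scaling. Fau, which encodes a small subunit protein fused to a ubiquitin-like part, averaged 265 TPM in the earlier and 320 TPM in the later libraries and was not called.

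The mitochondrial ribosome, a separate machine encoded by nuclear Mrpl and Mrps genes, was followed as well. Of 76 genes tested, 4 (5.26%) were called higher and 0 lower, 49 (64.5%) had a fold change above 0, and the median was 0.10. For all genes tested these were 26.0% called higher, 77.9% above 0 and 0.42. The calls turned with the scaling, to 0 higher and 21 lower under median-of-ratios scaling, where 7 genes had a fold change above 0, and to 0 higher and 12 lower under quantile normalization, and 0 genes were called without E18.5 replicate A. Their summed TPM was 1949 ± 133 at E16.5 and 2029 ± 171 at E18.5 (SD, n = 3 each), a ratio of 1.04 beside 1.24 for the cytosolic genes. Mrps9 had the largest rise, 0.70 ± 0.14. Whether the lists differ from each other was not tested. The medians of the initiation, assembly, regulator and mitochondrial lists turned negative under median-of-ratios and quantile scaling.

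**Figure D4:**
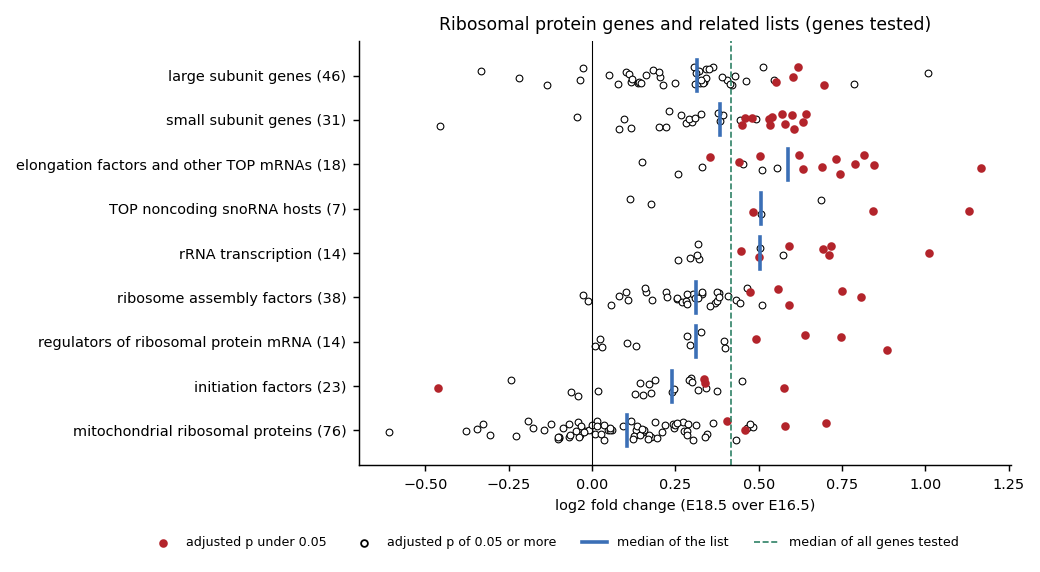
The log2 fold change (E18.5 over E16.5, TPM) of each gene tested in the core subunits and in related lists, with the number of genes in brackets, filled points for an adjusted p under 0.05, a bar for the list median and a dashed line for the median of all genes tested. The elongation factor and TOP list has its median at 0.59 and the mitochondrial ribosome at 0.10, on either side of the ribosomal protein genes; in this scale nearly all lists lie right of 0, whereas under median-of-ratios scaling the ribosomal protein genes and 4 of the 7 lists had a median below 0.

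Markers of several cell types differed between the stages, and their part in the results above was not tested. In a bulk sample, fewer cells of a type and less RNA per cell cannot be told apart. The summed TPM of 12 hepatoblast markers, which include Afp, ranged over 178777 to 226860 in the E16.5 libraries and over 41697 to 102929 in those of E18.5, and 7 of 12 were called lower. That of 11 cholangiocyte markers was 970 to 2944 and 8721 to 14823 TPM, with 9 of 11 called higher, led by Spp1. That of 10 megakaryocyte markers ranged over 3458 to 9974 TPM first and 92.4 to 790 TPM later, with all 10 called lower. Of 10 erythroid markers 2 were called lower, of 9 endothelial markers 2 higher, of 9 mesenchymal markers 2 higher, of 9 leukocyte markers 3 higher, and of 6 pancreatic acinar markers tested 3 lower. No marker on these lists was at 0 in every library. Of 10 proliferation genes 0 were called, with summed TPM of 483 to 631 and 458 to 706 (3 lower and 1 higher at an unadjusted p under 0.05).

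Within the stages the members' sum and the hepatoblast sum stood in nearly opposite order. At E16.5 replicate C had the lowest ribosomal protein sum and the highest hepatoblast sum, and at E18.5 replicate B had the highest ribosomal protein sum and the lowest hepatoblast sum, with replicate C the reverse. Since TPM sum to a fixed total, and Alb and other liver transcripts take a large share, the members were also set against protein-coding TPM without Alb and haemoglobin. On that scale they took 2.59%, 2.77% and 2.24% at E16.5 and 2.98%, 3.28% and 2.78% at E18.5, a ratio of 1.19, with every E18.5 library above every E16.5 library by a small margin. On that scale 17 members were called higher and 0 lower, or 21.25% of the members tested, against 33.1% of all genes tested on it.

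**Figure D5:**
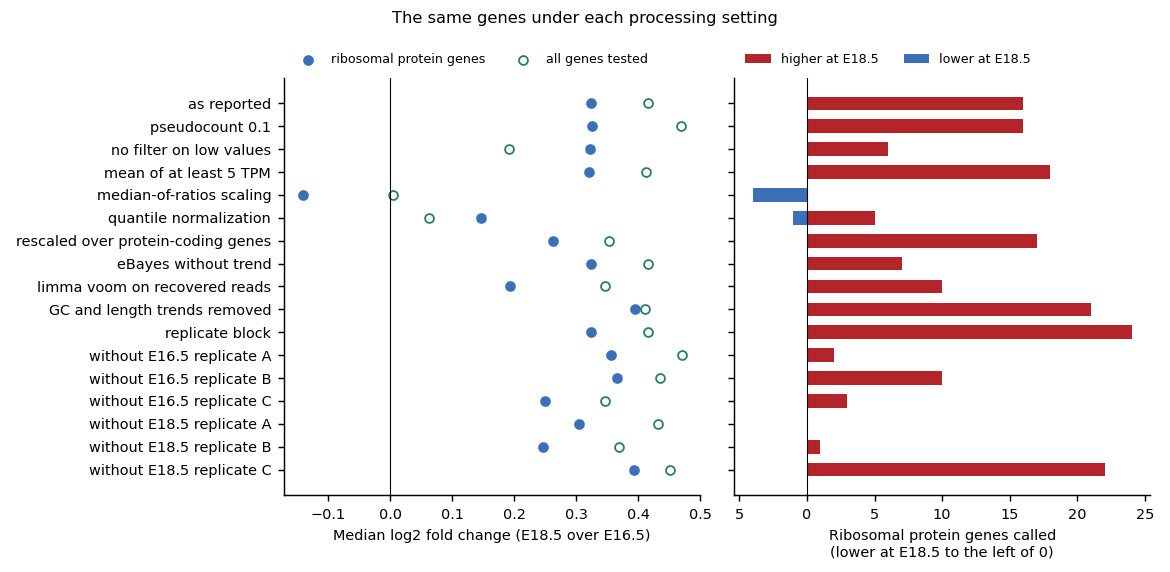
Left, the median log2 fold change (E18.5 over E16.5) of the ribosomal protein genes (filled) and of all genes tested (open) under each processing setting; right, the number of ribosomal protein genes called higher or lower. The members' median lies at 0.32 as reported and is below 0 only under median-of-ratios scaling, at -0.14, and calls range from 0 to 24.

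The promoters of the members were compared with those of other genes in RefSeq windows of 300 bases (250 before and 50 after the annotated start, build GRCm38.p6), which held 63 of the 83 members. A run of at least 8 pyrimidines that opens with C, on the coding strand between 30 bases before and 50 bases after the start, was held by 49 of 63 members (77.8%) and by 25.9% of 26962 other genes. CCGGAAG, the core of an ETS factor site, on either strand in the whole window, was held by 26 of 63 members (41.3%) and 9.86% of other genes. GATGGCG, part of a YY1 site, on either strand, was held by 5 members (7.94%) and 4.03% of other genes, and TATAAA on either strand by 7 members (11.1%) and 15.7%. CTTCCGG, the other strand of the ETS core, can overlap the end of a pyrimidine run. A gene counts as holding a motif if any of its windows does.

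The 80 bases from 60 before to 20 after the start are shown for highly abundant genes (Rplp0 and Rpl4), for called genes (Rps7 and Rps9) and for Rpl38, with pyrimidine runs and CCGGAAG on either strand in capitals.
Rplp0: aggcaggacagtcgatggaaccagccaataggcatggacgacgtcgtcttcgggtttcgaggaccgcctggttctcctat
Rpl4: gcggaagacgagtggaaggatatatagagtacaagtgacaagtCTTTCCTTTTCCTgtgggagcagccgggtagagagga
Rps7: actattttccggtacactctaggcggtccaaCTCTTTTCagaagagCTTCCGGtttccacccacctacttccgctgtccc
Rps9: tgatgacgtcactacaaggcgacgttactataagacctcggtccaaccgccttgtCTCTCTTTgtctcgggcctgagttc
Rpl38: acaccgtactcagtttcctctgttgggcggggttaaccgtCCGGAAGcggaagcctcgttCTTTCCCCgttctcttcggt
They lie at chr5:115559407-115559486 (plus strand), chr9:64173327-64173406 (plus), chr12:28635934-28636013 (minus), chr7:3703981-3704060 (plus) and chr11:114668520-114668599 (plus). In Rpl38 the run begins at the annotated start itself, while in Rpl4, Rps7 and Rps9 it begins upstream of it, so the annotated starts need not be those used in these cells. Rplp0, the highest gene, held none in the window searched.

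The members are spread over 19 chromosomes, with 14 on chromosome 7, 8 on chromosome 17 and 4 on the X chromosome, so that neighbouring position is not what they share. They are frequent hosts of small nucleolar RNAs, which guide the modification of ribosomal RNA: 30 of 83 members (36.1%) hold at least 1 annotated snoRNA gene on their own strand, against 1.54% of the protein-coding genes tested, and together they hold 58. Rpl4 holds 5 and Rpl13a holds 4.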

How the data were processed

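RNA of sorted cells was sequenced in 6 libraries, 3 per stage, each from pooled livers; nothing says more of their independence, so p-values measure the spread between pools. The authors trimmed reads, aligned them with HISAT2 2.1.0 to GRCm38 (versions from the submitters' processing notes), counted them per gene with HTSeq and converted the counts to TPM, the unit of the deposited table, which sums to 1000000 per library. Whether reads matching several loci were counted is not given in the sources used here.

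Symbols, lengths and coding sequences came from GENCODE vM21, in which 52403 identifiers matched and 147 did not. Whole reads recovered from TPM and exon length (within 0.01, 72 of 83 members) came to 13093937 to 26206374 per library, each E18.5 library being shallower. log2(TPM + 1) was fitted with limma 3.58.1 (R 4.3.3, eBayes with trend) over 22452 genes averaging 1 TPM or more, called at adjusted p under 0.05 (Benjamini-Hochberg). In simulated libraries of 20230 genes, 100 genes were changed 4-fold and 100 2-fold, as many up as down, with the same assumed spread for every gene. Of the 4-fold changes 99% were recovered and of the 2-fold changes 31%, with 17 false calls. In the data 5828 genes were called higher and 1172 lower, so these rates need not hold there. Changes below 2-fold were not simulated.

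Members and lists were chosen with earlier results of these data known. Named genes were the 3 highest of each subunit, the 5 largest and 5 smallest fold changes, paralogs with their counterparts, stalk genes and Rpsa, members below 1 TPM, and the extreme calls of each list; other genes were chosen after their values were seen. Rps4l is no member, being annotated as a pseudogene. Alternatives were another pseudocount (0.1), filter, scaling, eBayes without trend, voom on recovered reads, GC and length trends removed, a replicate block, and leaving out each library. Results for some genes are left out of the text and of the plots by gene.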

Additional observations from a re-analysis of the deposited data

How the results depend on the processing

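The count of members called higher, 16, was 6 without a filter on low values, 0 under median-of-ratios scaling and 5 under quantile normalization. It was 7 without the eBayes trend and 10 with voom on recovered reads, and it ran from 0 to 22 with 1 library left out. Without the filter 7.32% of members were called higher, against 8.01% of all genes tested. These shares were 0% and 6.49% under median-of-ratios scaling, and 6.25% and 8.53% under quantile normalization. They were 8.75% and 22.6% without the trend, and 14.5% and 20.5% with voom. With 1 library left out they ran from 0% to 27.5% of members and from 4.63% to 20.8% of all genes tested. The count called lower, 0, was 4 under median-of-ratios scaling and 1 under quantile normalization, and was 0 with any library left out. Of all genes tested, 10.6% and 8.37% were called lower under these scalings. The members' median, 0.32, was -0.14 under median-of-ratios scaling, and ran from 0.25 to 0.39 with 1 library left out. The ratio of summed TPM, 1.24, ran from 1.18 to 1.31. The cause of these shifts was not tested. Same-lettered libraries did not clearly pair (correlations of their deviations -0.04 for A, 0.08 for B and 0.14 for C). Between unlike letters the correlations ran from -0.15 to 0.08, so only that for C lay above all of them. Among the core genes, replicate C was most often the lowest and replicate B most often the highest at both stages. So few libraries cannot decide whether the letters share more than a name. With the letter as a replicate block, 24 members were called higher and 0 lower, and the median stayed at 0.32. These 24 were 30% of the members tested, against 27.5% of all genes tested.

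Signs turned under median-of-ratios scaling for the list medians of initiation factors (-0.21), assembly factors (-0.14), regulators (-0.14) and the mitochondrial ribosome (-0.34), and for Rpl10 (-0.32), Rpl22l1 (-0.067), Rpl3 (-0.32), Rpl39 (-0.13), Rpl4 (-0.13), Rpl7 (-0.061), Rpl7l1 (-0.36, adjusted p 0.0332), Rplp0 (-0.16), Rplp1 (-0.31), Rplp2 (-0.36), Rps10 (-0.0040), Rps16 (-0.017), Rps4x (-0.14) and Rpsa (-0.18). Under quantile normalization they turned for the medians of initiation factors (-0.025), assembly factors (-0.024), regulators (-0.026) and the mitochondrial ribosome (-0.26), and for Rpl22l1 (-0.058), Rpl3 (-0.079), Rpl7l1 (-0.13) and Rplp2 (-0.023). With voom on recovered reads they turned for the mitochondrial ribosome (-0.073) and Rplp2 (-0.016). With 1 library left out, log2 fold changes ran from -0.41 to 0.24 for Rpl17, from -1.26 to 0.29 for Rpl26, from -0.45 to 0.091 for Rpl38 and from -0.15 to 0.37 for Rplp2. The noncoding host list has no value after rescaling over protein-coding genes. Of 555 values of 35 named members under the alternatives, 406 kept sign and side of the threshold, 116 kept the sign but lost the call, 7 gained one, and 26 changed sign. Depth limits Rpl24 and Rpl23a, which rest on 8 to 35 reads per library.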
